A study of Mus musculus with 29 samples.

Results

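Ly6Chi macrophages from the liver were compared with Ly6Chi macrophages from the spleen of wild-type mice, gene by gene. The comparison used 6 of the 29 RNA-seq libraries of a study of lysosomal RNA stress, 3 from each organ. Genes on autosomes were taken where 3 or more of these 6 libraries held 1 RPM (a read count scaled to a common library total) or more, which gave 10288 of the 23930 genes in the deposited table. Of 21921 autosomal genes, 8945 reached 1 RPM in all 6 libraries, 658 in exactly 3 and, just outside the filter, 1267 in exactly 2. Among the genes that passed with exactly 3 libraries, 209 did so through the liver alone and 355 through the spleen alone, so that a difference between the organs was part of how they entered.

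Both groups came from untreated C57BL/6 mice that carried intact RNase T2 genes. The study used male and female animals, and their ages were not given in the sources used here. The labels describe both populations as high for Ly6C, positive for CD11b and negative for Ly6G, SiglecF and NK1.1. The preparations differed between the organs. Spleens were crushed on glass slides, and cells bearing CD3, NK1.1, Ly6G or TER-119, among other antigens, were removed with magnetic beads before a sort that also required low CD16.2. Livers were digested in a heated mechanical dissociator, and debris and red blood cells were removed before F4/80+ CD11b-high cells were gated; bead depletion was not described for them. Organ and preparation therefore cannot be told apart in any value below. Whether the 3 libraries of a group came from separate animals was not stated, so the p-values measure the spread between these libraries, which may be technical.

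Ly6Chi monocytes leave the bone marrow, circulate and enter tissues, where they can turn into macrophages. In the spleen a reservoir of such cells lies in the red pulp, beside sites where precursors still divide. In the liver they are recruited along the sinusoids, which are lined by specialized endothelium and hold the resident macrophages called Kupffer cells (KCs).

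Transcripts were amplified with a fixed panel of primer pairs, the Ion AmpliSeq mouse transcriptome, and given in RPM. A gene's RPM can be compared between libraries, but not with the RPM of another gene. Liver libraries held 11179177 to 12956956 reads and splenic libraries 14280906 to 14415756, so that 3 reads, taken as the smallest detectable level, corresponded to 0.208 to 0.268 RPM. Replicates of the spleen resembled each other more (Pearson correlation of log2 levels across genes 0.994 to 0.995) than those of the liver (0.976 to 0.983). The liver replicates differed in neutrophil granule genes, whose summed level was 482, 2689 and 2020 RPM in replicates 1, 2 and 3. They differed in Y-linked genes as well, which summed to 0, 28.95 and 42.1 RPM in the liver and to at most 0.14 RPM in the spleen. Xist, the X-inactivation RNA of female cells, was at 321 to 539 RPM in the liver and 554 to 612 RPM in the spleen, so liver replicates 2 and 3 held both Y-linked and Xist reads. Results that rest on such genes are given with this spread. Sex went partly with the organ, since only liver libraries held more than 0.14 RPM of Y-linked reads. The part of sex in the values below was not tested. Liver replicate 1, without Y-linked reads, was not the same material as replicates 2 and 3.

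The sorted identity was checked against the antigens of the gates. Itgam, which encodes CD11b, was at 1829, 1282 and 1334 RPM in the 3 liver libraries and at 1753, 1819 and 1771 RPM in the 3 splenic libraries, and the ranges overlapped. Csf1r, the receptor for the macrophage growth factor CSF-1, was at 1028, 807 and 884 RPM in the liver and 783, 743 and 812 RPM in the spleen. Adgre1, which encodes F4/80, was at 116, 160.0 and 91.1 RPM in the liver and 75.2, 70.3 and 67.4 RPM in the spleen (log2 fold change 1.02, SE 0.17, adjusted p = 0.001). F4/80 was required by the liver gate but not by the splenic gate as described, and the part of the gates in this value was not tested. The antigens used for exclusion were not all absent from the spleen. Ly6g, a neutrophil antigen, was at 31.8, 29.2 and 33.5 RPM in the spleen and at 0, 0.584 and 0.626 RPM in the liver. Klrb1c, which encodes NK1.1, was at 144, 136 and 128 RPM in the spleen and at 3.32, 3.92 and 0.984 RPM in the liver. Clec4f, a defining KC gene, was at 0.167 RPM or less in every liver library. The genes for Ly6C itself were not analysed here.

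Levels were divided by a scaling factor for each library, and log2(level + 1) was compared by limma's two-sided moderated test, with p-values adjusted by the method of Benjamini and Hochberg. Genes that differed more than 1.5-fold with an adjusted p below 0.05 are called higher or lower. The added 1 pulls fold changes of low genes towards 0. By this rule 1749 genes (17.0%) were higher and 2152 genes (20.9%) lower in the liver, and 6387 were not called. Counts of list members below are to be read beside these shares. The median log2 fold change over all 10288 genes was -0.05. Without scaling factors the median moved to -0.30 and the calls to 1108 higher and 3316 lower, so directions of modest changes are relative to the scaling. An exact permutation test of 3 against 3 libraries cannot give p below 0.1, and any gene whose organs did not overlap reached that value. In bulk libraries, fewer cells of a type and less RNA per cell cannot be told apart.

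**Figure D1:**
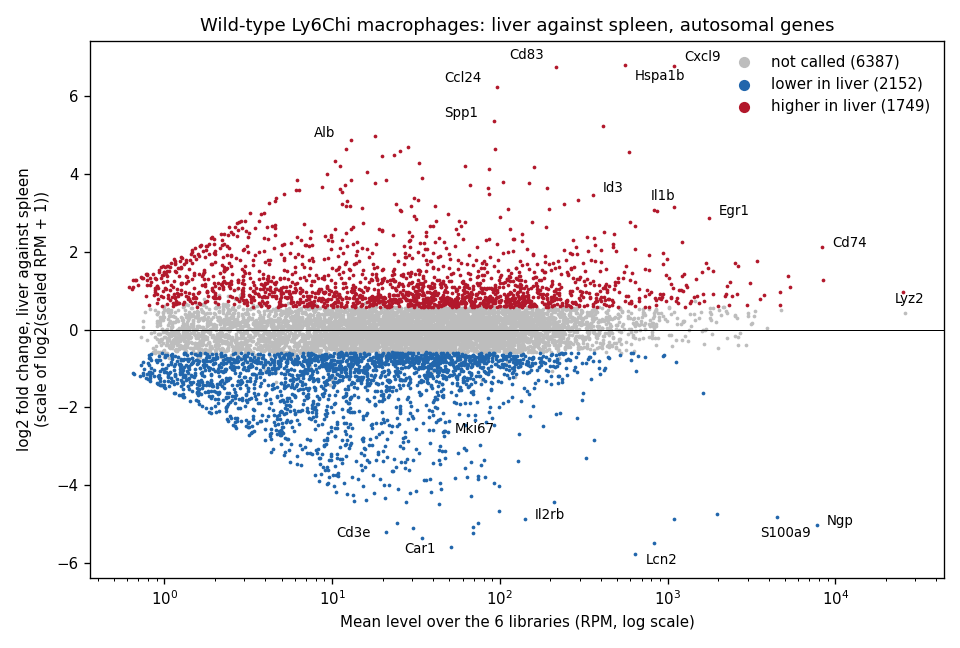
Log2 fold change of liver against spleen (vertical axis) plotted against the mean RPM of the 6 libraries (horizontal axis, log scale) for 10288 autosomal genes, with 1749 called higher in the liver in red, 2152 called lower in blue and the rest in grey. Hspa1b, Cxcl9 and Cd83 stand at the top, and neutrophil, erythroid and lymphocyte genes such as Lcn2, Car1 and Cd3e stand at the bottom.

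Chemokines were among the genes that differed most between the organs. Of 19 chemokine genes tested, 16 were higher and 1 was lower in the liver, with a median log2 fold change of 2.78 against -0.05 over all genes. Of the 19, 4 passed the filter through the liver alone and 1 through the spleen alone. Their summed level was 11003 to 12728 RPM in the liver and 4798 to 4914 RPM in the spleen.

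Ligands of CXCR3, the receptor that guides activated T and NK cells, rose together. Cxcl9 was at 2262, 1890.1 and 2371 RPM in the liver and at 23.8, 22.6 and 21.9 RPM in the spleen (log2 fold change 6.78, SE 0.13, adjusted p = 8.2e-09). Cxcl10 was at 1028, 1024 and 1308 RPM against 53.6, 61.7 and 51 RPM, a log2 fold change of 4.58 (SE 0.14). The organs were far apart for both, with little spread within either. Cxcl11 was at 19.9, 21 and 31.2 RPM in the liver and at no more than 0.139 RPM in the spleen, which is 2 reads or fewer in a library. The 3 genes lie next to each other on chromosome 5.

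Eosinophil- and lymphocyte-attracting chemokines of the alternative activation program were higher as well. Ccl24 (eotaxin-2) was at 220.3, 224 and 129 RPM in the liver and at 1.39, 1.74 and 2.66 RPM in the spleen (log2 fold change 6.24, SE 0.23). Ccl22, a ligand of CCR4, was at 43.1, 74.6 and 48.8 RPM against 1.25, 2.08 and 1.12 RPM (log2 fold change 4.70, SE 0.22). Among the chemokines at high level in both organs, Ccl3, which attracts monocytes and T cells, was at 2388, 2932 and 2107 RPM in the liver and 1004, 999 and 947 RPM in the spleen (log2 fold change 1.60). Ccl6 rose by 0.92 on the log2 scale, and Ccl9 was at 1870.3 to 1929 RPM in the liver and 1629 to 1779 RPM in the spleen without being called. The exception was Ccl5, a chemokine that T and NK cells make, which was lower in the liver (log2 fold change -1.17). T and NK cell genes were lower in the liver too (values below), and their part in the Ccl5 value was not tested.

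**Figure D2:**
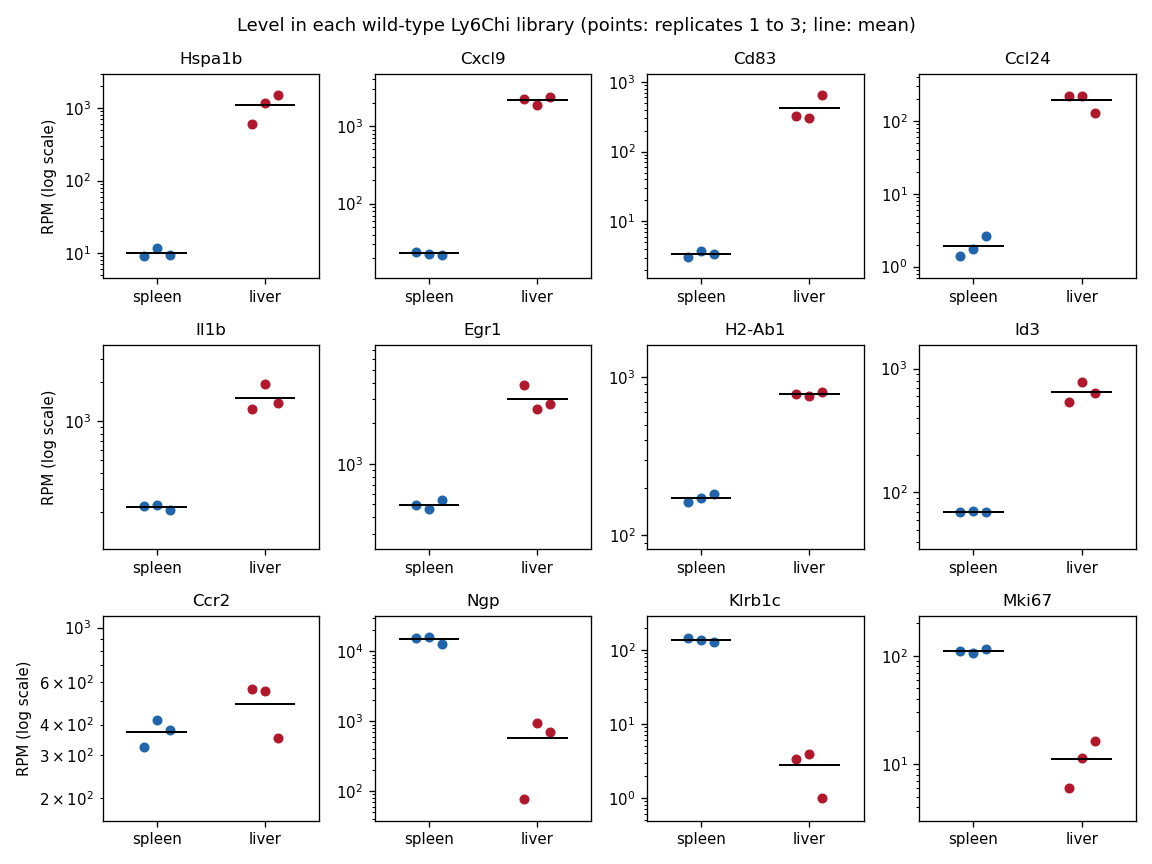
RPM of 12 genes (vertical axes, log scale) in each of the 3 splenic (blue) and 3 hepatic (red) wild-type Ly6Chi libraries, with a line at each mean. Cxcl9 sits between 1890.1 and 2371 RPM in the liver and between 21.9 and 23.8 RPM in the spleen, and Ngp is spread from 76.3 to 959 RPM over the liver libraries.

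NF-kB is a family of transcription factors held in the cytoplasm by inhibitor proteins and released by Toll-like receptor, TNF and IL-1 signals, and it drives transcription of its own inhibitors. Of 26 genes tested for its subunits, inhibitors and feedback targets, 20 were higher and none was lower in the liver (median log2 fold change 1.42). Cd83, a costimulatory surface protein, was at 324, 301 and 659 RPM in the liver and 3.05, 3.75 and 3.43 RPM in the spleen (log2 fold change 6.75, SE 0.28). Acod1, which makes itaconate, was at 88.7, 150.2 and 113 RPM against 6.73, 5.76 and 7 RPM. The organs did not overlap for either gene. Ccrl2, an atypical receptor that binds chemerin, was at 1051, 1780.1 and 1558 RPM in the liver and 201, 204 and 206 RPM in the spleen (log2 fold change 3.08, SE 0.17). Ptgs2, the inducible prostaglandin synthase, rose by 3.10 and Tnip3, an inhibitor of NF-kB signalling, by 3.32 on the log2 scale. The inhibitor genes Nfkbia, Nfkbiz and Nfkbib rose less. Nfkbia, which encodes IkBa, was at 1869, 2668 and 2161 RPM against 981, 928 and 952 RPM (log2 fold change 1.49). Nfkbiz was at 2248 to 2699.8 RPM against 891 to 940.0 RPM, and Nfkbib at 1128 to 1615 RPM against 573 to 659 RPM.

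Promoter windows from RefSeq (GRCm38.p6) were searched for short motifs on both strands over the 250 bases before the start site. A window was found for 8248 of the 10288 genes. The kB motif, searched as GGANTTTCC, was in 1.05% of all 27025 windows in the table and in 1.12% of those of the tested genes. It was in 32 of 1345 windows of genes higher in the liver (2.38%), in 1.10% of those of genes lower in the liver and in 0.792% of those not called. Among the NF-kB genes 6 of 22 windows held it, and among the chemokines 4 of 12, those of Cxcl1, Cxcl2, Cxcl3 and Cxcl10. The 250 bases before the start site are shown for an inhibitor, a chemokine and a receptor that were higher in the liver and hold the motif, on the strand of the gene and with the motif in capitals. The Nfkbia window (chr12:55492648-55492897, minus strand) holds it 2 times, the Cxcl10 window (chr5:92348890-92349139, minus strand) at -158 and the Ccrl2 window (chr9:111057519-111057768, minus strand) at -68. A match of these letters is a description of the window and does not show a factor bound there.
Nfkbia: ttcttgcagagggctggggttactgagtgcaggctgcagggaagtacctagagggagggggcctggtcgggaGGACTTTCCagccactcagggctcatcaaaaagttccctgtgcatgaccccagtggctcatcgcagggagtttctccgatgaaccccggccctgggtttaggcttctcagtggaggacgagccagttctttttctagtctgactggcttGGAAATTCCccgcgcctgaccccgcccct
Cxcl10: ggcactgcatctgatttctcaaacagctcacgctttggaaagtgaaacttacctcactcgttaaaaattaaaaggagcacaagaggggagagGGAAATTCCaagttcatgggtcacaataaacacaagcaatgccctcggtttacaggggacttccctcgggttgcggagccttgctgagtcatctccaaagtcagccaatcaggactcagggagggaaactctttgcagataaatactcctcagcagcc
Ccrl2: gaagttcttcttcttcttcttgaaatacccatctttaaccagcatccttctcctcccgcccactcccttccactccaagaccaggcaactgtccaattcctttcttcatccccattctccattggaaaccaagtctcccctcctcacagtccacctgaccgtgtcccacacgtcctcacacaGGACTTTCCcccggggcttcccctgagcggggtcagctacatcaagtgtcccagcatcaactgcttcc

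Cytokines and growth factors showed the same direction. Of 26 tested, 23 were higher in the liver and 1, Tnfsf14, was lower (log2 fold change -0.59, a call that held in 7 of 16 alternatives), with a median of 2.0. Of the 26, 3 passed the filter through the liver alone. Il1b was at 1234, 1940.3 and 1385 RPM in the liver and 220.2, 228 and 206 RPM in the spleen (log2 fold change 3.05, SE 0.15). Il1a was at 21.7, 56.6 and 58.1 RPM against 1.46, 1.04 and 1.12 RPM. The receptor antagonist Il1rn, which blocks both ligands, rose with them, from 13.6 to 14.6 RPM in the spleen to 141 to 178 RPM in the liver. Tnf was low in both organs, at 12.9, 31 and 20.1 RPM in the liver and 1.25, 0.486 and 1.26 RPM in the spleen (log2 fold change 3.62, SE 0.29). Il6 rose by 3.31 and the anti-inflammatory cytokine Il10 by 3.17 on the log2 scale, Il10 from 1.04 to 2.64 RPM in the spleen to 9.11, 32.2 and 30.2 RPM in the liver. Ifnb1, the type I interferon gene of most cells, was at 3.78 to 6.98 RPM in the liver and 0.486 to 0.971 RPM in the spleen. Hbegf, an EGF receptor ligand, was at 16.1, 21.8 and 27.6 RPM in the liver and 1.39, 1.04 and 1.26 RPM in the spleen. Edn1, which encodes the vasoconstrictor endothelin-1, was at 25.7, 61.9 and 20.04 RPM in the liver and at 0.139 to 0.14 RPM, 2 reads, in each splenic library.

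Immediate early genes are transcribed within minutes of many stimuli, including the handling of cells. Of 46 tested, 29 were higher and 2 were lower in the liver (median log2 fold change 1.19), and their summed level was 43576 to 48202 RPM in the liver and 26378 to 26517 RPM in the spleen. Of the 46, 4 passed the filter through the liver alone. Egr1, a zinc-finger transcription factor, was at 3816, 2543 and 2758 RPM against 497, 464 and 536 RPM (log2 fold change 2.86, SE 0.17). Nr4a1, a nuclear receptor that Ly6Clow monocytes need, was at 5078, 4717 and 5277 RPM against 1804, 1797 and 1765 RPM (log2 fold change 1.77). Fos, a subunit of AP-1, was at 7592, 5993 and 6954 RPM against 3572, 4128 and 3879 RPM. Splenic cells thus also held a high level of Fos. Ier3 and Gadd45b, survival and stress genes, rose by 3.90 and 3.35 on the log2 scale. Myc (log2 fold change -1.38) and the MAP kinase phosphatase Dusp6 (-0.89) were the 2 that fell.

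Heat shock genes included the largest log2 fold change on the scale used. Hspa1b, an inducible HSP70 gene on chromosome 17 (34956436 to 34959238 in GRCm38), was at 596, 1192 and 1503 RPM in the liver and 8.95, 11.8 and 9.38 RPM in the spleen (log2 fold change 6.81, SE 0.29, adjusted p = 5.3e-07). Its near-identical neighbour Hspa1a was at 529.5, 811 and 1047 RPM against 25.6, 22.2 and 22.5 RPM, and how reads were divided between these copies is uncertain. Hsph1, an HSP110 cochaperone, rose by 2.39 and Dnajb1, an HSP40, by 1.33 on the log2 scale. Of the 15 heat shock chaperone genes tested, 6 were higher and 2 were lower (median 0.53). Those lower were Chordc1, an HSP90 cochaperone, at 11, 30.3 and 4.47 RPM in the liver and 73.3, 77.4 and 84.6 RPM in the spleen, and Hsf1, which encodes the heat shock factor itself (log2 fold change -0.69).

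The core of the heat shock element was searched as TTCNNGAA and was in 7.10% of all windows, in 5.70% of those of tested genes and in 2 of 12 windows of chaperone genes, those of Hsph1 and Hspe1. The Hsph1 window (chr5:149636337-149636586, minus strand) is shown with the motif, at -33, in capitals, since Hsph1 was the chaperone with the largest fold among those holding it. The windows of Hspa1a and Hspa1b did not hold these letters.
Hsph1: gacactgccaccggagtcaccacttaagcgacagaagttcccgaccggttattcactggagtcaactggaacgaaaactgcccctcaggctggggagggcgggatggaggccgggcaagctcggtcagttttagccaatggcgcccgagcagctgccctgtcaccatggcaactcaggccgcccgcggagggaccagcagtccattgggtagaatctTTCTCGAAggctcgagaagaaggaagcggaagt

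The liver preparation used a heated dissociator and the spleen preparation did not, and heat shock and immediate early genes differed between the libraries of other groups as well. Summed immediate early transcripts reached 4102 to 5753 RPM in the 4 wild-type KC libraries and 6687 to 11910 RPM in the 3 Rnaset2-/- hepatic Ly6Chi libraries, below the 43576 RPM of the lowest wild-type hepatic Ly6Chi library. They reached 36455 to 50671 RPM in wild-type hepatic Ly6Clow cells, which overlapped the Ly6Chi range. Heat shock chaperones summed to 4740 to 7224 RPM in the liver and 2879 to 3044 RPM in the spleen of the wild-type Ly6Chi cells, to 4270 to 5337 RPM in KCs and to 7255 to 10699 RPM in wild-type hepatic Ly6Clow cells. The preparation and the organ cannot be told apart in these values.

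Interferon-stimulated genes were higher in the liver for 20 of 34 tested, and none was lower (median log2 fold change 0.74). Gbp2, a guanylate-binding protein of antimicrobial defence, was at 275, 352 and 199 RPM in the liver and 22.3, 22.1 and 23.7 RPM in the spleen (log2 fold change 3.78, SE 0.17). Ifi203, a member of the family of DNA-binding interferon-inducible proteins, was at 254, 214 and 186 RPM against 50.9, 58.6 and 49.6 RPM. Gbp5 and Irf1 rose by 1.87 and 1.57 on the log2 scale. Some members rose less, and 14 of the 34 were not called. Irf7 rose by 0.59 only, a call that held in 10 of 16 alternatives. Oasl2 was at 372 to 529.9 RPM in the liver and 429 to 464 RPM in the spleen. Rsad2 was at 8.88, 45.6 and 10.6 RPM against 35.6 to 36 RPM, and neither Oasl2 nor Rsad2 was called. Liver replicate 2 stood apart from the other replicates in Rsad2.

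The core of the interferon-stimulated response element, searched as GAAANNGAA, was in 7.16% of all windows and 6.27% of those of tested genes. It was in 13 of 25 windows of interferon-stimulated genes (52%) and in 7.73% of those of all genes higher in the liver. A match can overlap a kB match, since both contain TTTC on one of the strands. The Gbp2 window (chr3:142620413-142620662, plus strand) is shown with the motif, at -58 and on the opposite strand, in capitals, because Gbp2 was the member with the largest fold.
Gbp2: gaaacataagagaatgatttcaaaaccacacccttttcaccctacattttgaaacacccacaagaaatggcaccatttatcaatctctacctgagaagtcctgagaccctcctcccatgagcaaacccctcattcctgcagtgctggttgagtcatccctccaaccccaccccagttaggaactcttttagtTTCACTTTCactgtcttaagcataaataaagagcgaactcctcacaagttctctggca

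MHC class II genes, which present peptides to CD4+ T cells, were higher for 8 of 15 tested and lower for 3 (median log2 fold change 0.86). The invariant chain gene Cd74 was at 13001, 11947 and 14422 RPM in the liver and 3639, 3771 and 3459.8 RPM in the spleen (log2 fold change 2.13, SE 0.14). H2-Ab1 was at 788, 759 and 801 RPM against 163, 173 and 182 RPM, and H2-Aa and H2-Eb1 rose by 2.26 and 1.98 on the log2 scale. Ciita, the transactivator of the class II genes, was at 211, 156 and 167 RPM against 66.3, 72.7 and 72.3 RPM. The 3 lower genes were H2-Oa and H2-Ob, whose product restrains peptide loading, and the promoter-binding factor Rfxank, at log2 fold changes from -0.72 to -0.59. The calls of H2-Oa and Rfxank were each lost when 1 or another library was left out. Dendritic cell genes beside these were mixed, with 5 of 18 tested higher and 5 lower, against 17.0% and 20.9% of all genes. Of the 18, 1 passed the filter through the spleen alone. Itgax (CD11c) was at 511, 375 and 322 RPM in the liver and 120.3, 131 and 116 RPM in the spleen, while Xcr1, which marks type 1 dendritic cells, was at 1.5 to 2.78 RPM against 12.7 to 15.1 RPM. The part of dendritic cells in the class II values was not tested.

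**Figure D3:**
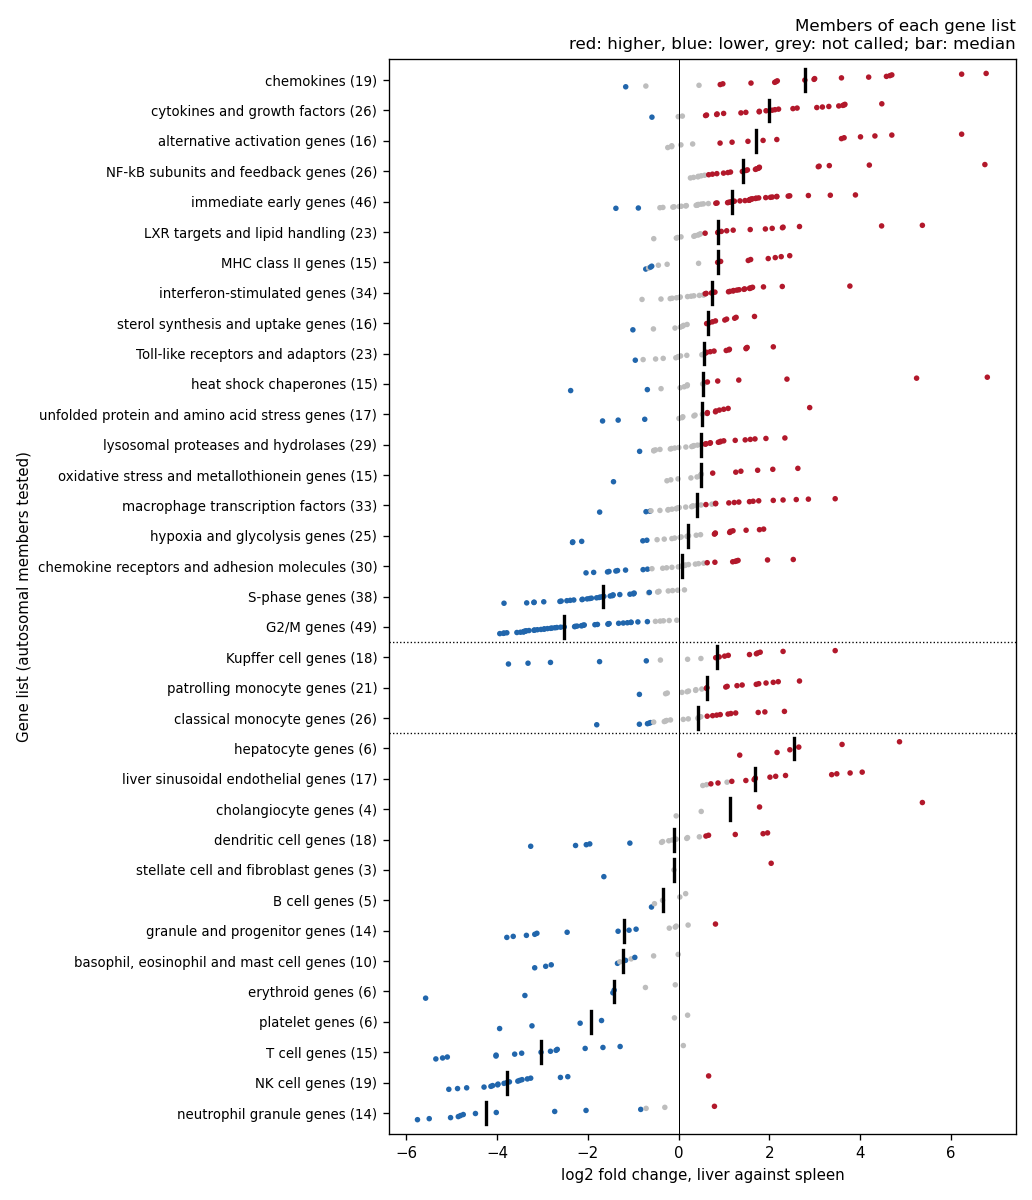
Log2 fold change of liver against spleen (horizontal axis) for the tested autosomal members of 35 gene lists (vertical axis, number tested in brackets), with higher members in red, lower in blue, uncalled in grey and a bar at each median. Chemokines (median 2.78) and cytokines (2.0) lie to the right, G2/M genes (-2.52), NK cell genes (-3.79) and neutrophil granule genes (-4.25) to the left.

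Genes of alternative activation, the state that IL-4 and related signals induce, were higher for 11 of 16 tested and lower for none (median 1.70), and 3 of the 16 passed the filter through the liver alone. Arg1, which consumes arginine, was at 32, 18.7 and 5.01 RPM in the liver and 0 to 0.139 RPM in the spleen. Pdcd1lg2, which encodes the checkpoint ligand PD-L2, was at 28.7, 19.2 and 14.5 RPM against 0 to 0.277 RPM. Tgm2, a transglutaminase, was at 228, 465 and 365 RPM against 30.2, 30.2 and 34.9 RPM (log2 fold change 3.65). Their receptor subunit gene Il4ra was at 302 to 317 RPM in the liver and 294 to 311 RPM in the spleen, and was not called. The rise in Arg1 was uneven, with liver replicate 3 well below replicate 1.

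Genes that mark KCs, among them targets of the oxysterol receptor LXR, were divided. Of 18 KC genes tested, 10 were higher and 5 were lower (median 0.86), and the list summed to 2515 to 3262 RPM in the liver, 1306 to 1371 RPM in the spleen and 11577 to 32396 RPM in the KC libraries. Of the 18, 1 passed the filter through the spleen alone. Id3, a transcription regulator that KCs need, was at 539, 777 and 630.4 RPM in the liver and 69.4, 70.9 and 69.9 RPM in the spleen (log2 fold change 3.45, SE 0.13). Nr1h3, which encodes LXRa, was at 42.5, 48.6 and 51.9 RPM against 10.5, 9.78 and 12.3 RPM (log2 fold change 2.30). C1qb, a complement subunit, and Axl, a receptor for dying cells, rose by 1.72 and 1.80 on the log2 scale. Mertk, the partner receptor of Axl, was at 3.94, 9.6 and 4.74 RPM against 4.09 to 4.9 RPM and was not called. The opposite direction was seen in Cd5l, an LXR target that encodes AIM, at 1.62, 1 and 0.895 RPM in the liver and 15.6, 16 and 18.4 RPM in the spleen (log2 fold change -2.82, SE 0.19). Slc40a1 (ferroportin, the iron exporter), Fcna (a ficolin) and Cd163 (the receptor for haptoglobin-bound hemoglobin) were lower in the liver too, at log2 fold changes of -3.32, -3.75 and -1.74.

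Among 23 genes of LXR targets and lipid handling, 14 were higher and none was lower (median 0.88). Spp1, which encodes osteopontin, was at 188, 131 and 222 RPM in the liver and 3.75, 3.96 and 4.55 RPM in the spleen (log2 fold change 5.38, SE 0.21). Gpnmb, a marker of lipid-laden macrophages, was at 16.5, 43.1 and 56.1 RPM against 0.555 to 1.26 RPM. Cd36, a fatty acid and scavenger receptor, was at 115, 84.7 and 99 RPM against 18.6, 16.7 and 18.7 RPM. Plin2, which coats lipid droplets, was at 895, 1372 and 1273 RPM against 392, 366 and 361 RPM, and Fabp4, a fatty acid carrier, rose by 2.29 on the log2 scale. Sterol synthesis and uptake genes were higher for 9 of 16 tested, led by Insig1 (log2 fold change 1.67) and Sqle (1.27), while Srebf2, which encodes the factor that drives them, was lower (-1.01). Spp1 is also a gene of bile duct cells. Of the 4 tested members of that list, 2 were higher in the liver and none was lower, and 1 passed the filter through the liver alone. The 2 were Spp1 and Krt19, and Krt19 was at 1.08 to 5.17 RPM in the liver. The part of bile duct cells in the Spp1 value was not tested.

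Transcription factors of macrophages were higher for 14 of 33 tested and lower for 3 (median 0.40, or 0.13 without scaling factors). Pparg, a nuclear receptor of lipid metabolism, was at 63.9, 48.1 and 57.2 RPM in the liver and 15.4, 14.7 and 15.3 RPM in the spleen (log2 fold change 2.09, SE 0.15). Spi1 (PU.1), common to all myeloid cells, rose by 0.82 on the log2 scale, a call that was lost without scaling factors. The 3 that were lower were Gfi1, a repressor of the granulocyte lineage (log2 fold change -1.74), Bach2 (-0.72) and Irf4 (-0.63). The call of Bach2 held in 9 of 16 alternatives and that of Irf4 in 14.

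Classical monocyte genes went in both directions, while genes of patrolling monocytes were more often higher than lower in the liver. Of 26 classical monocyte genes tested, 10 were higher and 5 were lower (median 0.43, or 0.15 without scaling factors). Ccr2, the receptor that takes these cells out of the marrow, was at 558, 548 and 352 RPM in the liver and 323, 419.6 and 380.0 RPM in the spleen, and the ranges overlapped although the gene was called higher (log2 fold change 0.63, SE 0.18), a call lost without scaling factors. Lyz2 (lysozyme) was at 29380.1, 21216 and 31978 RPM in the liver and 24348 to 24674 RPM in the spleen and was not called. Clec4e (Mincle) was at 158, 238 and 188 RPM against 44.5, 42.2 and 49.6 RPM, and Cd177, a surface protein shared with neutrophils, at 76.6, 128 and 162 RPM against 518, 477 and 499 RPM. Of 21 genes of patrolling, Ly6Clow monocytes, 12 were higher and 1, Pou2f2, was lower (median 0.63). Eno3 was at 119, 84.7 and 94.8 RPM against 31.8, 29.4 and 30.7 RPM, and Hes1, a Notch target, at 179.7, 104 and 179 RPM against 39.4, 42.2 and 34.7 RPM.

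Chemokine receptors and adhesion molecules were divided too, with 8 of 30 tested higher and 9 lower, against 17.0% and 20.9% of all genes. Of the 30, 1 passed the filter through the liver alone and 1 through the spleen alone. Cxcr4, the receptor for the bone marrow chemokine CXCL12, was at 1763, 2019 and 2199 RPM in the liver and 965, 947 and 998 RPM in the spleen (log2 fold change 1.31). Lower in the liver were Cxcr2, the receptor of neutrophils (log2 fold change -2.04), the laminin receptor subunit Itga6 (-1.87) and the sphingosine phosphate receptor S1pr4 (-1.57). The list median of 0.07 turned to -0.17 without scaling factors.

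Of 23 genes of Toll-like receptors and their adaptors, 11 were higher and 1, the adaptor Tirap, was lower (median 0.57, or 0.31 without scaling factors). Tlr2 was at 65.1, 82.2 and 77.9 RPM in the liver and 20.6, 18.5 and 22.4 RPM in the spleen (log2 fold change 2.09, SE 0.13), and Cd14, the coreceptor for lipopolysaccharide, at 441, 621 and 613 RPM against 227, 245 and 230.3 RPM. Of 29 lysosomal genes, 14 were higher and 1, Ctsf, was lower (median 0.50, or 0.22 without scaling factors). Acp5, a tartrate-resistant phosphatase, was at 131, 132 and 158 RPM against 33.2, 33.7 and 30.8 RPM. The proteases Lgmn and Ctsl rose by 1.93 and 1.68 on the log2 scale.

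Metabolic and stress genes held large changes in both directions. Of 25 hypoxia and glycolysis genes, 10 were higher and 5 were lower (median 0.22, which turned to -0.06 without scaling factors). Of the 25, 2 passed the filter through the liver alone. The glucose transporter Slc2a1 was at 59, 94.2 and 100.3 RPM in the liver and 27.7, 28 and 28.9 RPM in the spleen, while the other transporter Slc2a3 was at 7.18, 18.9 and 16.8 RPM against 82.1, 92.4 and 83.2 RPM. Ndrg1 and Mxi1, both targets of hypoxia-inducible factors, were lower in every liver library, at log2 fold changes of -2.33 and -2.14. Of 15 oxidative stress genes 6 were higher and 1, catalase (Cat), was lower (median 0.49). Nfe2l2, which encodes the factor NRF2, was at 330.1, 287 and 324 RPM against 60.9, 57.7 and 62.8 RPM, and Hmox1, its target that degrades heme, at 409, 477 and 911 RPM against 198, 198 and 213 RPM. Of 17 genes of the unfolded protein response and amino acid stress, 8 were higher and 3 were lower (median 0.53). Of the 17, 1 passed the filter through the spleen alone. Hspa5, the chaperone BiP, rose by 1.09, and the amino acid stress targets Asns and Chac1 had log2 fold changes of -1.68 and -1.33.

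Cell cycle genes were lower in the liver throughout the lists. Of 49 G2/M genes tested, 44 were lower and none was higher (median log2 fold change -2.52), and they summed to 1102 to 1315 RPM in the liver and 3637 to 3654 RPM in the spleen. Of 38 S-phase genes, 30 were lower and none was higher (median -1.66), with sums of 353 to 439 RPM against 1450.4 to 1488 RPM. Cdk1, the kinase that starts mitosis, was at 0.849, 6.51 and 3.85 RPM in the liver and 66.7, 74.6 and 65 RPM in the spleen (log2 fold change -3.86, SE 0.42). Birc5 (survivin) was at 4.4, 9.1 and 6.26 RPM against 119, 121 and 121 RPM, and Ube2c, which targets mitotic cyclins, at 4.48, 11.3 and 11.7 RPM against 178, 162 and 182 RPM. Mki67, which encodes the proliferation marker Ki-67, was at 6.02, 11.3 and 16.2 RPM against 111, 107 and 116 RPM. Replication genes behaved alike. Rrm2, which makes deoxynucleotides, was at 2.7, 11 and 11.4 RPM against 147, 138 and 135 RPM, and the helicase subunit Mcm6 at 19.8, 18.7 and 20.6 RPM against 129, 119 and 120.4 RPM. No liver library reached the lowest splenic library in these genes, and liver replicate 1 was the lowest library in Cdk1, Birc5, Ube2c, Mki67 and Rrm2. Of the S-phase genes 3, and of the G2/M genes 2, passed the filter through the spleen alone.

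Neutrophil transcripts were lower in the liver by an order of magnitude. Neutrophil granule genes summed to 482 to 2689 RPM in the liver and to 32183 to 34507 RPM in the spleen, and of 14 tested 11 were lower and 1, Padi4, was higher (median log2 fold change -4.25). Ngp, a granule protein, was at 76.3, 959 and 709 RPM in the liver and 15666, 16065 and 12962 RPM in the spleen (log2 fold change -5.03, SE 0.76, adjusted p = 0.00056). Lcn2 (lipocalin-2, which binds bacterial siderophores) was at 5.25, 42.2 and 25.8 RPM against 1285, 1249.8 and 1242 RPM, and Ltf (lactoferrin) at 6.71, 76 and 42.2 RPM against 1539, 1445 and 1869 RPM. S100a9, the calprotectin subunit that monocytes make as well, was at 67.5, 637 and 369 RPM against 8887, 7905 and 9037 RPM. Liver replicate 1 was several-fold below the other liver libraries in all 4 genes. Genes of granule precursors, such as Elane (1.39, 13.3 and 15.1 RPM against 79.1, 86.9 and 86.2 RPM) and Prtn3, were lower in the liver in 9 of 14 tested, with 4 not called and 1, Calr, higher (median -1.21). This list summed to 1059 to 1238 RPM in the liver and 1308 to 1431 RPM in the spleen. Myb, a factor of dividing progenitors, was at 4.01, 10.6 and 14 RPM against 95.4, 104 and 107 RPM. Cell cycle genes and these precursor genes were lower in the same libraries, and the part of precursors in the cell cycle values was not tested. Itgb2l, an integrin of the granulocyte lineage, followed at 0.309, 6.17 and 5.63 RPM against 143, 145 and 144 RPM.

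NK and T cell transcripts were mostly higher in the spleen. NK cell genes summed to 49.8 to 67.6 RPM in the liver and 1181 to 1244 RPM in the spleen, and of 19 tested 18 were lower and 1, Klrk1, was higher (median log2 fold change -3.79), with 5 of the 19 having passed the filter through the spleen alone. Gzma (granzyme A) was at 8.8, 3.92 and 4.2 RPM against 203, 193 and 179 RPM, and Il2rb, an IL-2 receptor subunit, at 10.5, 4.42 and 6.71 RPM against 292, 272 and 261 RPM. T cell genes summed to 22.1 to 42.7 RPM and 384 to 415 RPM, with 14 of 15 tested lower and none higher, though 8 of the 15 passed the filter through the spleen alone. Cd3e, a chain of the T cell receptor complex, was at 0, 0.167 and 0 RPM in the liver and 44.5, 39.7 and 41.8 RPM in the spleen. The T cell kinase Lck, the factor Tcf7 and the surface protein Thy1 were lower as well, at log2 fold changes of -5.10, -5.35 and -5.23. B cell genes differed least among the lymphocyte lists, with sums of 61.5 to 68.8 RPM and 88.9 to 97.9 RPM and 1 of 5 tested, Cd79b, lower. That share lay near the 20.9% of all genes.

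Smaller populations were mixed in how far they differed. Car1, the carbonic anhydrase of red cell precursors, was at 0.463, 2.09 and 0.447 RPM in the liver and 101, 99.4 and 103 RPM in the spleen (log2 fold change -5.58, SE 0.27). Erythroid genes were lower for 4 of 6 tested, platelet genes for 4 of 6, among them Ppbp (log2 fold change -3.95), and genes of basophils, eosinophils and mast cells for 6 of 10, among them the basophil protease Mcpt8 (-2.93). Of these, 2 of the erythroid, 2 of the platelet and 2 of the basophil, eosinophil and mast cell genes tested passed the filter through the spleen alone. The last list summed to 9.72 to 145 RPM in the liver and 144 to 155 RPM in the spleen, and the ranges overlapped. None of these lists had a member called higher. Adamts14, a collagen-processing protease, was at 0.617, 0.501 and 0.089 RPM in the liver and 52.5, 45.3 and 47 RPM in the spleen.

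Transcripts of liver cells were found in the liver libraries at low levels. Hepatocyte genes summed to 47.2 to 95.7 RPM in the liver and 0.555 to 1.26 RPM in the spleen. Alb (albumin) was at 25.9, 23.9 and 27.7 RPM in the liver and at 0 in all 3 splenic libraries, which makes it at least 123-fold higher against a floor of 3 reads per splenic library. The 6 hepatocyte genes tested were all higher and all had passed the filter through the liver alone. Of 17 genes of liver sinusoidal endothelium tested, 14 were higher and none was lower (median 1.69, 6 of the 17 having passed through the liver alone), with sums of 265 to 333 RPM against 127 to 149 RPM. Clec4g (LSECtin) was at 22.3, 36.9 and 33.7 RPM against 1.05 to 1.32 RPM, and Stab1, a scavenger receptor that some macrophages express too, at 24.9, 38 and 39.3 RPM against 1.18 to 3.5 RPM. In the KC libraries the hepatocyte list reached 2367 to 7313 RPM and the endothelial list 6871 to 15571 RPM. The part of liver cells in genes that they share with macrophages was not tested.

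The remaining genes of largest fold belonged to none of the lists. Mmp14, a membrane-bound matrix protease, was at 205, 159.9 and 169.7 RPM in the liver and 7.63, 7.84 and 7.14 RPM in the spleen (log2 fold change 4.65, SE 0.14). Ralgds, an activator of Ral GTPases, was at 39.9, 50.3 and 58.9 RPM against 1.46, 1.8 and 1.05 RPM (log2 fold change 4.59).

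**Figure D4:**
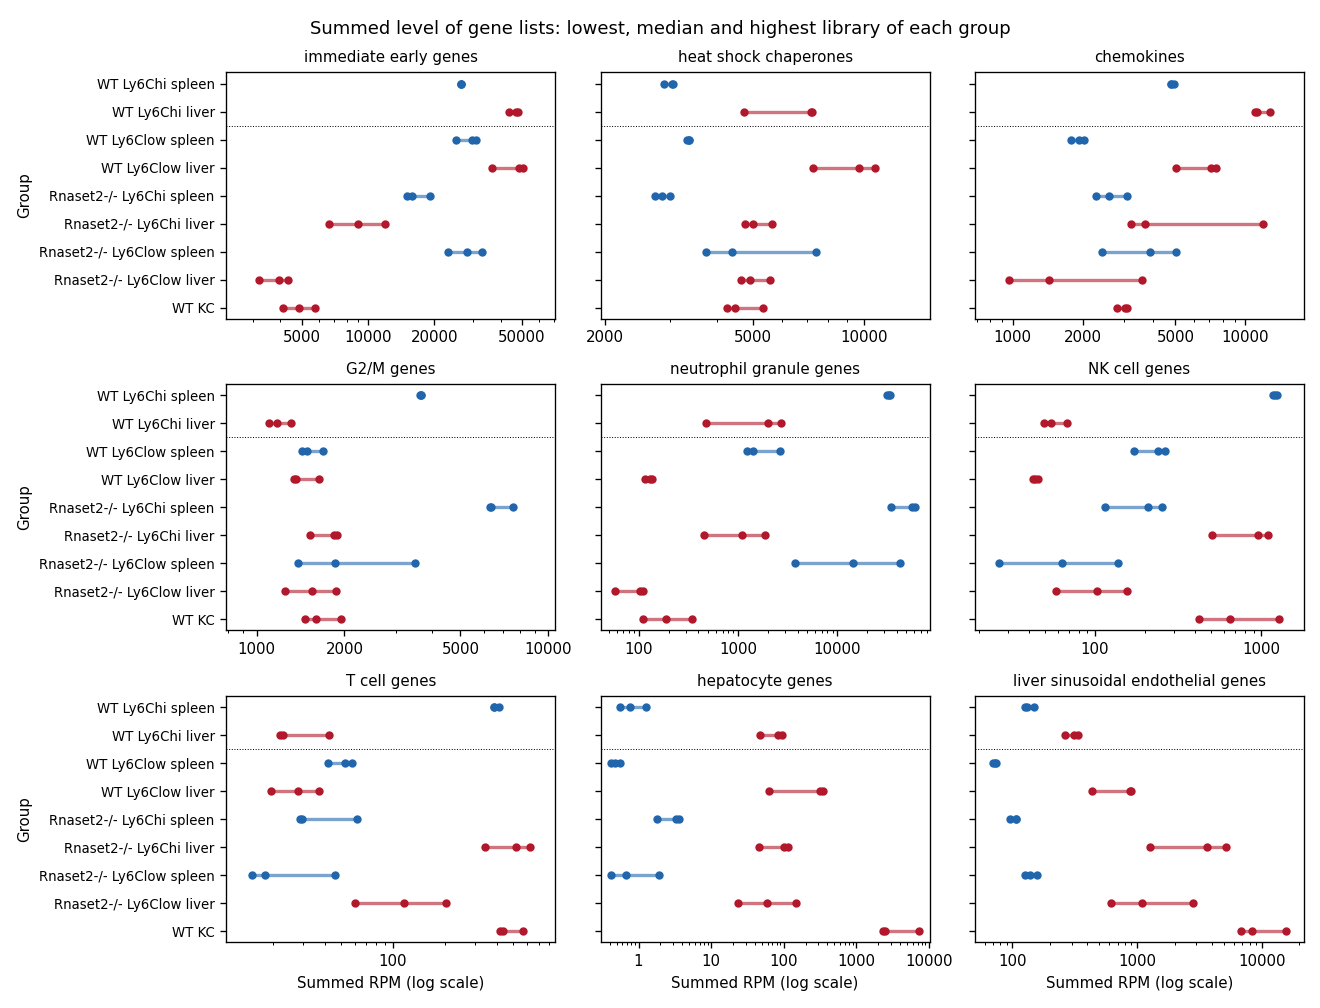
Summed RPM of 9 gene lists (horizontal axes, log scale) in each group of sorted cells (vertical axis), drawn as the lowest, median and highest library, liver groups in red and spleen groups in blue. In wild-type Ly6Chi cells neutrophil granule genes sum to 482 to 2689 RPM in the liver against 32183 to 34507 RPM in the spleen, and immediate early genes to 43576 to 48202 RPM against 26378 to 26517 RPM.

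Whether the organ difference was particular to Ly6Chi cells was asked with wild-type Ly6Clow macrophages of both organs, 3 libraries each. The interaction term of limma was called positive for 931 of 11847 genes (7.86%), where the effect of the liver was more positive in Ly6Chi cells, and negative for 1267 (10.7%). Cell cycle genes differed by subset. In Ly6Clow cells the G2/M list had a median log2 fold change of 0.56 between liver and spleen, against -2.50 in Ly6Chi cells, and the difference was called negative for 42 of 49 members and positive for none. Spleen Ly6Clow libraries summed to 1426 to 1693 RPM in these genes, close to the level of both hepatic subsets, so that splenic Ly6Chi cells were the group with the high level. NF-kB genes had a difference called positive in 12 of 26, and MHC class II genes had 7 of 15 called negative, with a median organ effect of 2.17 in Ly6Clow cells against 0.88 in Ly6Chi cells. Immediate early genes differed in few members, with 4 of 46 called positive and 3 negative, and medians of 1.204 and 0.852.

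Of the 10 genes carried into this test, 4 had a called difference by subset. The 10 were the 5 with the highest and the 5 with the lowest log2 fold change between the organs in wild-type Ly6Chi cells. Their choice from the same libraries favours a larger effect in those cells. Cxcl9 had log2 fold changes of 6.80 in Ly6Chi and 5.29 in Ly6Clow cells (difference 1.51, SE 0.36). For Hspa1b the values were 6.83 and 5.90, and the difference of 0.92 (SE 0.42) was not called. Splenic Ly6Clow cells held 32.0 to 39.3 RPM of Hspa1b, above the 8.95 to 11.8 RPM of splenic Ly6Chi cells.

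The same question was put to Ly6Chi cells of Rnaset2-/- mice, which lack RNase T2, with 3 libraries from each organ. The interaction was called positive for 1738 of 10962 genes (15.9%) and negative for 1936 (17.7%). It used the same 6 wild-type libraries as the comparison by subset. Leaving out 1 library at a time gave 1399 to 2159 positive and 1508 to 2259 negative differences. The Rnaset2-/- hepatic libraries were uneven, with MHC class II sums of 14720, 15500 and 58259 RPM from lowest to highest. The Rnaset2-/- splenic libraries were deeper than the others, at 20404155 to 21167602 reads. Lymphocyte genes differed in every tested member of the lists: 19 of 19 NK cell genes and 15 of 15 T cell genes had a negative difference, with median organ effects in Rnaset2-/- cells of 1.98 and 3.19. In those mice the hepatic Ly6Chi libraries held the T cell transcripts, at a sum of 341 to 626 RPM, and the splenic libraries 28.8 to 61.6 RPM, the reverse of the wild type. Immediate early genes had a median organ effect of -0.48 in Rnaset2-/- cells against 1.23 in wild-type cells, and 27 of 46 had a positive difference. Endothelial genes had a median of 6.35 against 1.73, with 16 of 17 negative. The G2/M list had medians of -2.84 and -2.48, and 11 of 49 differences were called positive and none negative. How much of these differences lies in the cells carried along with the sort was not tested.

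Cd83 and Ccl24, high in wild-type hepatic Ly6Chi cells, were at 4.14 to 6.1 RPM and 0.618 to 2.46 RPM in those of Rnaset2-/- mice, and their differences of 5.71 and 5.46 on the log2 scale were called. Hspa1b had log2 fold changes of 6.86 and 6.86 in wild-type and Rnaset2-/- cells, and the difference had an SE of 0.59. Cxcl9 was at 582.7 to 5576 RPM in hepatic Rnaset2-/- cells, and its difference of 1.56 (SE 0.96) was not called.

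**Figure D5:**
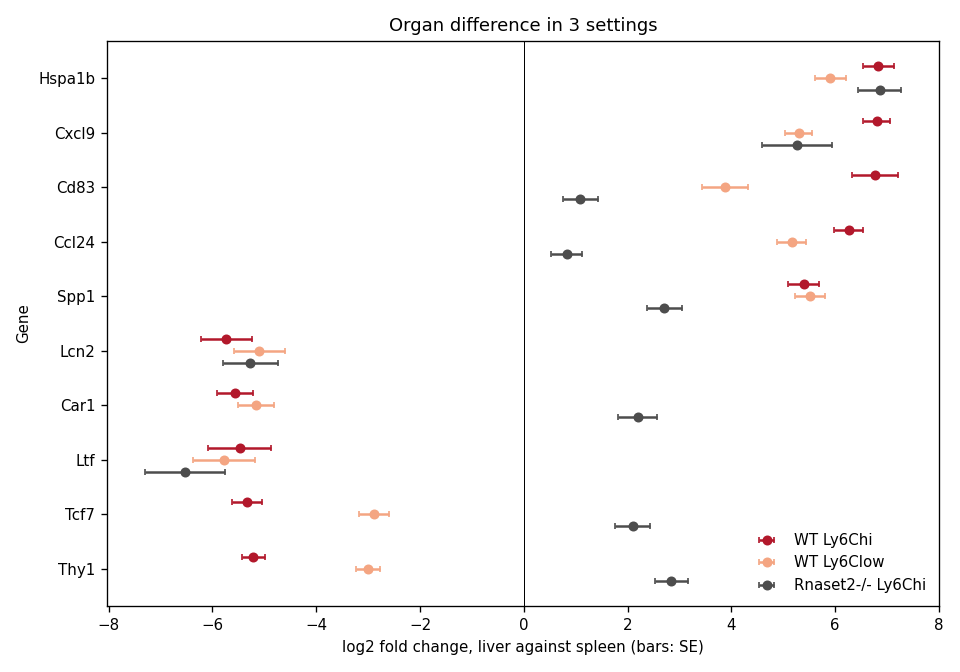
Log2 fold change of liver against spleen (horizontal axis, bars are SE) of 10 genes (vertical axis) in wild-type Ly6Chi, wild-type Ly6Clow and Rnaset2-/- Ly6Chi cells, each group of 3 libraries per organ. Hspa1b lies between 5.90 and 6.86 in all 3, while Car1, Tcf7 and Thy1 are below 0 in both wild-type subsets and above 0 in Rnaset2-/- cells.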

How the data were processed

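The authors sequenced amplified cDNA (Ion AmpliSeq mouse transcriptome, 1 primer pair a gene) and deposited a single table of RPM values, that is, reads scaled to a common total, for 29 libraries; the submitters' processing notes list the genome build mm10, and the study's methods name the AmpliSeqRNA plug-in of the Torrent Suite. The RPM values returned whole reads (100% within 0.1 reads), so the depth of each library was known. From these values, genes with 1 RPM or more in 3 or more of the 6 libraries were kept, RPM was divided by relative log expression (RLE) factors, 1 was added, and log2 values were fitted with limma 3.58.1 in R 4.3.3. Sex-linked genes stayed in the fit and out of the results. Differences of the organ effect by subset and by genotype were interaction terms of limma over 12 libraries each. edgeR 4.0.16 and DESeq2 1.42.0 on the recovered reads, other scalings and filters, a replicate block and the removal of each library were tried as alternatives.

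The comparison and the 35 gene lists (756 genes) were chosen with earlier results of these data known. Named genes were the 12 highest and the 12 lowest called genes with a mean of at least 10 RPM and no overlap, the members of each list with the largest fold (up to 5) or the highest level (up to 4), and genes the study names. Genes that went against the direction of their list, and the antigens of the gates, were named after their values were seen. The fit was tested on simulated data with 200 changed genes and the same spread between libraries in both organs (dispersion 0.05). It recovered 9 of 200 at 1.5-fold, 105 at 2-fold and 200 at 4-fold, with at most 8 unchanged genes called. In the real data far more genes were called, and liver libraries varied more than splenic ones. These figures therefore do not give the recovery or the false calls of the real comparison. A gene that was not called may still differ. Of the 156 genes with an exact permutation test, 147 reached its smallest p. Many of these genes were chosen for no overlap or a large fold. The count therefore follows in part from that choice and is not a share over all genes. Results for some genes and 1 sort antigen are not reported here.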

Additional observations from a re-analysis of the deposited data

Results flagged for a closer look

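The organ difference of some genes depended on the subset or the genotype by the interaction term of limma, with adjusted p-values over all genes fitted. Between wild-type Ly6Chi and Ly6Clow cells, the liver-against-spleen log2 fold change was larger in Ly6Chi cells by 1.51 for Cxcl9 (adjusted p = 0.0102) and by 2.90 for Cd83 (adjusted p = 0.00533). It was more negative in Ly6Chi cells for Tcf7, with a difference of -2.45, and for Thy1, with a difference of -2.21. Splenic Ly6Clow cells held 37.3 to 102 RPM of Cd83, and splenic Ly6Chi cells 3.05 to 3.75 RPM.

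Between wild-type and Rnaset2-/- Ly6Chi cells, the difference was 5.71 for Cd83, 5.46 for Ccl24 and 2.72 for Spp1, with adjusted p-values from 2.6e-06 to 0.00123. For Car1 it was -7.75, for Tcf7 -7.44 and for Thy1 -8.04. These 3 erythroid and lymphocyte genes were lower in the liver of wild-type mice and higher in the liver of Rnaset2-/- mice, where their organ effects were 2.19, 2.10 and 2.85. Both comparisons share the 6 wild-type Ly6Chi libraries. The genes were chosen by their fold change in those libraries, which favours larger effects there.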

How the results depend on the processing

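Counts of called genes depended most on scaling, threshold and the libraries fitted together. Without scaling factors 1108 genes were higher and 3316 lower, the positive differences by subset fell to 428, and the differences by genotype were 804 positive and 3049 negative. A single fit of all 29 libraries called 2749 genes higher and 1823 lower (60.1% higher, median 0.10), and a threshold of more than 2-fold left 881 higher and 1196 lower. Leaving out 1 library at a time gave 1502 to 1708 higher and 1629 to 2310 lower genes. It gave 686 to 1208 positive and 953 to 1459 negative differences by subset. edgeR called 1886 higher and 2041 lower, DESeq2 1923 and 1991, and no filter on low values 2378 and 2018.

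Replicate numbers gave no sign of pairing. Deviations correlated at -0.017 to 0.004 between same-numbered libraries and at -0.033 to 0.039 between others. Values this close to each other cannot show whether libraries shared an animal. With the replicate block, 1764 genes were higher and 2185 lower, the differences by subset were 827 positive and 1201 negative, and those by genotype 1657 and 1872.

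Of the named genes, Itgam, not called, turned from -0.01 to 0.049 with DESeq2, 0.0362 with edgeR, 0.052 in the fit of all libraries and 0.35 with liver replicate 1 alone, and ranged from -0.175 to 0.128 with 1 library left out (0.128 without liver replicate 2, 0.0522 without liver replicate 3). Oasl2, not called, went to -0.00167 without scaling factors. The calls of Calr, Ccr2, Irf7, Hspe1, Spi1, Padi4 and Klrk1 were lost without scaling factors. The single fit of all 29 libraries lost the calls of 14 genes, Ccl5 (-1.11, adjusted p = 0.183), Ciita (1.65, adjusted p = 0.076), H2-Oa, H2-Ob, Rfxank, Bach2, Irf4, Pou2f2, Ctsf, Padi4, Klrk1, Cd79b, Ccr2 and Tnfsf14. Tnfsf14 was lost with a pseudocount of 0.1, no filter, DESeq2 and edgeR as well. TMM factors, another scaling, lost the calls of Hspe1, Irf7 and Ccr2, and no filter lost those of H2-Oa and Bach2. Cd79b was lost with DESeq2, and Bach2 with edgeR. Calls near the threshold were lost without single libraries: Tnfsf14 without liver replicate 1 or any splenic replicate, Ccr2 without liver replicate 1 or 2 or splenic replicate 1 or 3, Bach2 without liver replicate 1 or 2 or splenic replicate 1 or 2, Rfxank without liver replicate 1 or 2 or splenic replicate 2 or 3, Irf7 without liver replicate 1 or 3 or splenic replicate 2 or 3, Cd79b without liver replicate 2 or 3 or splenic replicate 3, H2-Oa without liver replicate 3 or splenic replicate 1 or 3, Hsf1 and Klrk1 without liver replicate 2, Hspe1 and Padi4 without liver replicate 3, and Ctsf without splenic replicate 1. Rsad2 (-1.48), Csf1r (0.61) and Lyz2 (0.64) were called without liver replicate 2. The cause of these changes was not tested.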

Other observations

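Pfdn5, a subunit of the prefoldin chaperone, was singled out after its values were seen. It was at 61.8 to 312 RPM in wild-type hepatic Ly6Chi cells and 87.8 to 322 RPM in wild-type hepatic Ly6Clow cells, but at 12.6 to 13.2 RPM in wild-type splenic Ly6Chi cells. Wild-type splenic Ly6Clow cells held 20.7, 27.3 and 74.5 RPM, which overlapped the hepatic Ly6Chi range. Rnaset2-/- hepatic Ly6Chi cells held 11 to 14.4 RPM and KCs 16.6 to 52.0 RPM. The pattern was not particular to Pfdn5. Trpc4ap was at 24.2 to 88.8 RPM in wild-type hepatic Ly6Chi cells and 2.08 to 2.52 RPM in splenic ones. In Rnaset2-/- hepatic Ly6Chi cells it was at 2.01 to 2.61 RPM. Qrich1, Chuk, Usp16 and Copb1 also separated wild-type hepatic Ly6Chi cells from both of these groups. What these genes share was not tested.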
